A study of Sus scrofa with 11 samples.

Results

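The genes described here are the heat shock proteins and the DNAJ cochaperones measured in the *M. semimembranosus*, a hind leg muscle, of growing pigs. They were taken as every probe set of the Affymetrix Porcine array whose platform annotation names a single gene symbol that starts with HSP or DNAJ, and each gene was represented by its brightest probe set over the 11 arrays. The rule gave 75 probe sets of 46 genes, out of 6765 genes that the array names singly. They fall into 7 small heat shock proteins with the HSPB prefix, 10 HSPA genes of the HSP70 family, 3 HSP90 genes, 2 mitochondrial chaperonin genes (*HSPD1* and *HSPE1*), 2 further genes with the prefix (*HSPH1* and *HSPBP1*) and 22 DNAJ genes, of which 4 are of class A, 7 of class B and 11 of class C. A symbol prefix is not a function, and *HSPB11* is also known as the intraflagellar transport protein IFT25.

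All 11 animals were purebred Duroc gilts, blocked by starting body weight. The 6 animals of the high protein (HP) group ate 217 g/kg crude protein with 13.0 g/kg total lysine, and the 5 of the low protein (LP) group ate 128 g/kg crude protein with 7 g/kg total lysine. Both diets were formulated to the same energy per kg of feed and were fed ad libitum for 63 days. Protein was lowered by raising the ratio of wheat to soyabean meal, so that the effects of protein level and of ingredients cannot be told apart. Each array held RNA of the whole muscle of 1 animal.

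Molecular chaperones bind unfolded or partly folded proteins. HSP70 proteins do so in a cycle driven by ATP, in which a DNAJ protein (also called HSP40) delivers the client and triggers ATP hydrolysis, and a nucleotide exchange factor such as *HSPH1* or *HSPBP1* resets the cycle. HSP90 proteins act on clients that are nearly folded, among them the myosin heads of the sarcomere, and the small HSPB proteins hold unfolded clients without ATP. In striated muscle several small heat shock proteins are abundant and bind the contractile and cytoskeletal filaments.

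All 46 genes were measured above the brightest of the 23 negative controls on all 11 arrays. Of 14 skeletal muscle markers, 10 had a probe set of their own, and these 10 were above the negative controls on every array. The arrays shared a median of 6.72 on the log2 scale, but their 99th percentiles ran from 12.47 to 13.29 and were highest in HP replicates 1, 2 and 4. The mean of 27 hybridisation spike-in probe sets, which measure added RNA and not the tissue, differed between the diets by -0.26 (log2, LP minus HP, two-sided exact permutation p = 0.186). Arrays thus differed in their upper range, where bright genes lie, and for the bright members values are also given after quantile normalization, which gives all arrays the same distribution, or without those 3 arrays.

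The first question was whether the LP diet changed the level of any of these genes. At an unadjusted limma p of 0.05 or less, 2 genes were higher in LP muscle (*DNAJB4* and *HSPBP1*), 1 was lower (*HSPA2*) and 43 did not pass. The study set the same level of 0.05 on P-like values from another method, which uses probe-level uncertainty, so its calls and these are not alike. Over the whole array 5.11% of 23999 probe sets passed in limma, 2.15% as higher and 2.97% as lower in LP, so 3 of 46 members (6.52%) was close to the background share. With Benjamini-Hochberg adjustment no probe set of the array passed in limma (smallest adjusted p = 0.644), against 1227 at the unadjusted threshold. The median log2 difference of the 46 genes was -0.05, with 28 of them below 0, beside a median of -0.04 over all genes. After quantile normalization the median was 0.02, with 20 of 46 below 0, and without HP replicates 1, 2 and 4 it was 0.09, with 14 below 0, so the families as a whole had no direction that held under both scalings.

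**Figure D1:**
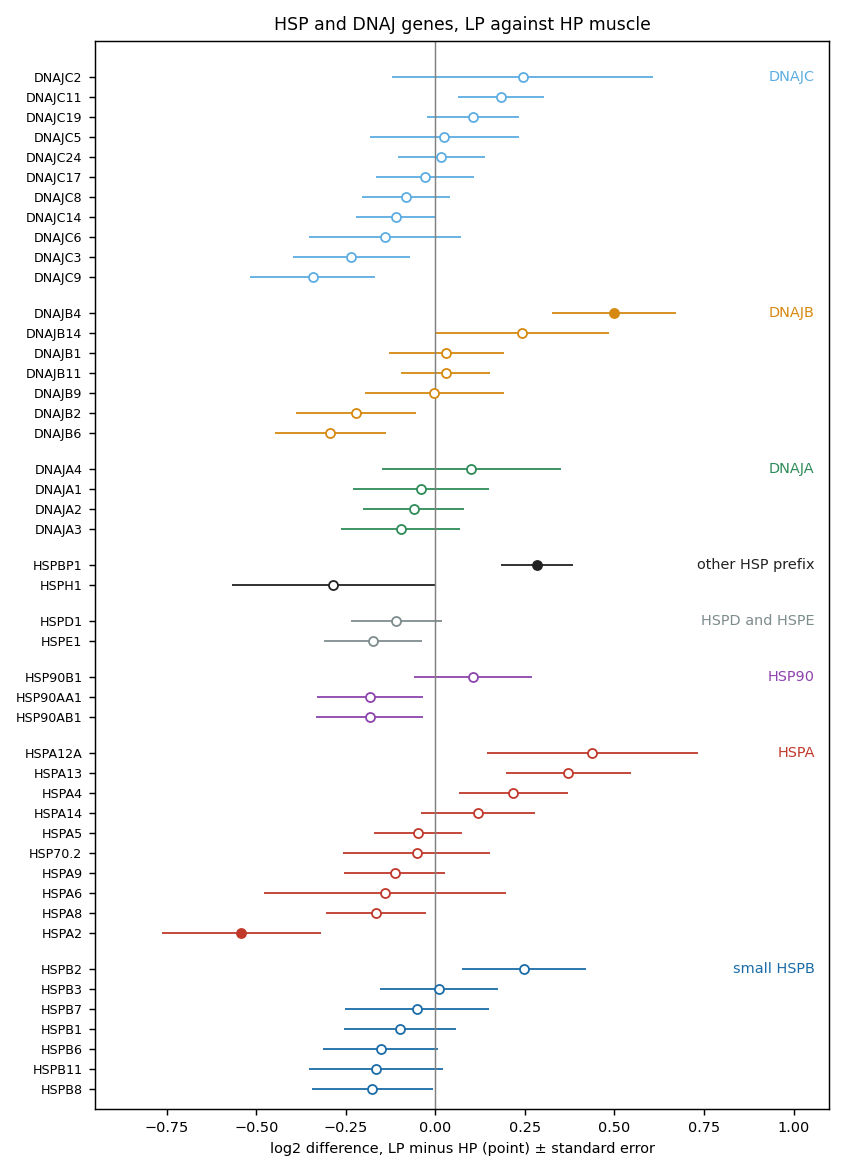
The log2 difference between the diets (LP minus HP, horizontal axis) for the 46 genes, grouped by family. Points are the differences and lines the limma standard errors, with filled points for the 3 genes at an unadjusted p of 0.05 or less. *DNAJB4* and *HSPBP1* lie to the right of 0 and *HSPA2* to the left, and most other genes lie within 0.25 of 0.

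*DNAJB4* encodes a class B DNAJ protein that works with HSP70. Its log2 level in the 5 LP animals was 10.70, 10.77, 10.37, 10.95 and 11.05, and in the 6 HP animals it ran from 9.78 to 10.58 with a median of 10.30. Of the LP animals, 4 lay above every HP animal, and LP replicate 3 lay among the upper HP values. The difference was 0.50 ± 0.17 on the log2 scale (SE, n = 6 and 5), or 1.41-fold, with a limma p of 0.015 and an exact permutation p of 0.017, and an adjusted p of 0.918 over all probe sets in limma. It passed the unadjusted threshold in each of the 11 fits that left out 1 array, where the difference ran from 0.40 to 0.60, and without HP replicates 1, 2 and 4 together (0.45).

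*HSPBP1* encodes a nucleotide exchange factor that binds the HSP70 ATPase domain. It read 7.28, 7.11, 7.21, 7.24 and 6.97 in LP muscle, and from 6.72 to 6.94 (median 6.92) in HP muscle. It was the only member whose LP and HP values did not overlap, and over the array 0.517% of the 6765 genes had diets that did not overlap. The difference was small, 0.28 ± 0.10 (log2, SE, 1.22-fold, limma p = 0.017), and its exact permutation p of 0.0022 was the smallest that 6 against 5 animals can give. The within-diet SD of *HSPBP1* was 0.10, beside a median of 0.26 for the 46 genes. It passed the unadjusted threshold in all 11 fits that left out 1 array (0.25 to 0.33). It did not pass with a trended, robust prior in limma, with the replicate number as a block (0.29) or without HP replicates 1, 2 and 4 (0.27).

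*HSPA2* is an HSP70 gene best known for its role in male germ cells and also expressed in other tissues. Its LP values were 10.62, 10.08, 9.70, 10.29 and 9.55, and its HP values ran from 10.29 to 11.11 with a median of 10.53. LP replicate 1 lay in the middle of the HP range, and the other LP animals lay below every HP animal, although LP replicate 4 (10.2875) and HP replicate 3 (10.288) were nearly equal. The log2 difference was -0.54 ± 0.22 (SE, limma p = 0.034, exact permutation p = 0.039, adjusted p = 0.962 over all probe sets in limma), so that the HP level was 1.46-fold the LP level. The call was lost in 6 of the 11 fits that left out 1 array (HP replicates 1, 2 or 4, LP replicates 2, 3 or 5), and without HP replicates 1, 2 and 4 together the difference was -0.28.

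**Figure D2:**
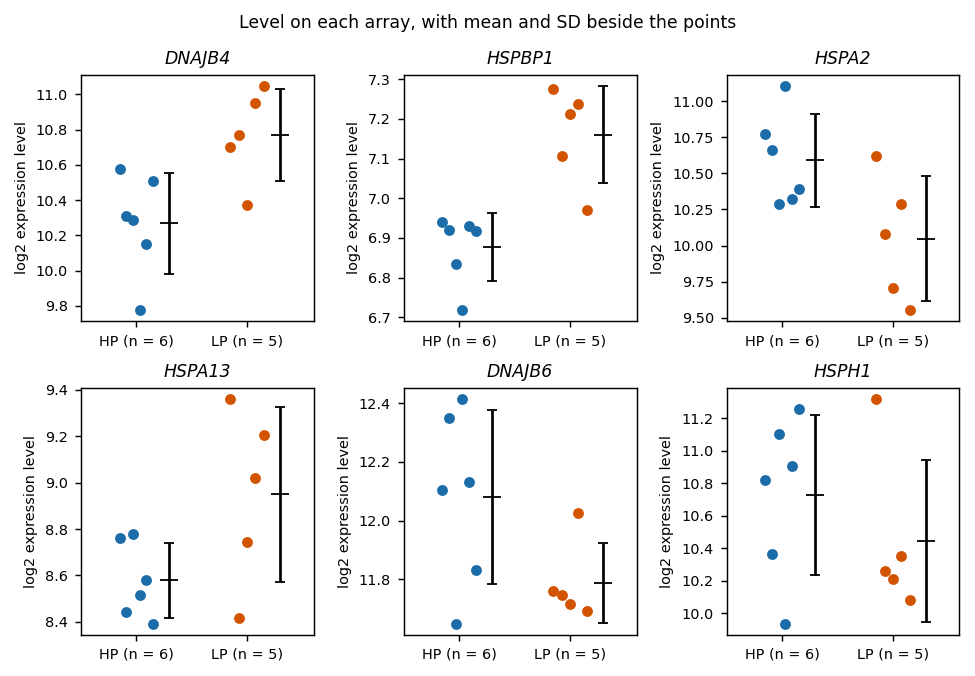
Log2 expression level of 6 genes on every array (points) by diet, with the mean and SD of each diet beside the points. *HSPBP1* is the only gene of the 6 whose diets do not overlap, and LP replicate 1 stands above the other LP animals for *HSPH1* (11.32 against 10.08 to 10.35).

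The other HSPA genes divide by cell compartment. *HSPA8*, the constitutive cytosolic HSP70, had a log2 difference of -0.17 ± 0.14, *HSPA9*, the mitochondrial member, -0.11 ± 0.14, and *HSPA5*, the HSP70 of the endoplasmic reticulum, -0.05 ± 0.12 (limma SE), none of which passed the test. After quantile normalization the differences were 0.01, -0.02 and -0.01. The 4 probe sets of *HSPA8* did not share a sign, with differences of -0.17, 0.19, -0.33 and 0.14. The heat-inducible gene is listed as *HSP70.2*, for which RefSeq gives the synonyms *HSPA1A* and *HSPA1B*, and a probe set may not separate near-identical copies of it. It ran from 11.36 to 11.84 in LP muscle and from 10.98 to 12.14 in HP muscle, with a difference of -0.05 (95% interval -0.50 to 0.40). *HSPA6*, which heat induces in humans, differed by -0.14 with an interval of -0.88 to 0.60, and was among the most variable members.

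The largest difference among the HSPA genes that missed the threshold was that of *HSPA12A*, a distant relative of HSP70 (0.44 ± 0.29, exact permutation p = 0.195), which passed the limma threshold without LP replicate 3 (0.65) and was 0.29 without LP replicate 2. *HSPA13*, a microsomal member, read 9.36, 8.42, 8.74, 9.02 and 9.21 in LP muscle against 8.39 to 8.78 in HP muscle. LP replicates 1, 4 and 5 lay above all HP animals and the other two did not, and the difference was 0.37 ± 0.17 (limma p = 0.057, exact permutation p = 0.069). Of the 11 fits that left out 1 array, it passed the limma threshold in 1, without LP replicate 2 (0.50). It also passed with a trended, robust prior, with dim probe sets left out and with low values raised. It did not pass after quantile normalization (0.38), with array weights (0.30) or with the replicate number as a block (0.33). Nor did it pass with the mean of its probe sets (0.28) or without HP replicates 1, 2 and 4 together (0.37). Without LP replicate 1 the difference was 0.27. *HSPA4*, a large HSP70 relative that acts as an exchange factor, differed by 0.22 ± 0.15 and *HSPA14*, which works at the ribosome, by 0.12 ± 0.16. Without HP replicates 1, 2 and 4 together, *HSPA14* passed as higher in LP (0.36).

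In the HSP90 family, the cytosolic *HSP90AA1* and *HSP90AB1* had like differences of -0.18 ± 0.15 each, and *HSP90B1*, the family's member in the endoplasmic reticulum, 0.10 ± 0.17 (log2, limma SE, none past the threshold). *HSP90AA1* read 13.11, 13.02, 12.99, 13.35 and 13.20 in LP muscle and from 12.92 to 13.61 in HP muscle, and the values of the diets overlapped. After quantile normalization its difference was 0.02 and that of *HSP90AB1* -0.06, and without HP replicates 1, 2 and 4 they were 0.03 and 0.01. The 5 probe sets of *HSP90AA1* did not share a sign, with differences of -0.18, -0.20, -0.12, 0.07 and 0.08.

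Of the 7 HSPB genes none passed the test, 5 lay below 0 and their median difference was -0.10. After quantile normalization 2 lay below 0 and the median was 0.04. *HSPB1* (-0.10 ± 0.16), *HSPB6* (-0.15 ± 0.16) and *HSPB8* (-0.18 ± 0.17), chaperones abundant in muscle, read 0.06, -0.01 and 0.02 after quantile normalization. *HSPB2*, which muscle expresses strongly, was the HSPB gene with the highest difference (0.25 ± 0.17, exact permutation p = 0.184, and 0.35 and past the limma threshold without HP replicate 4, but 0.13 without LP replicate 1), and its LP value in replicate 1 (11.18) was above all HP values (10.21 to 10.97). *HSPB7*, the cardiovascular small heat shock protein, differed by -0.05 with a 95% interval of -0.49 to 0.39. *CRYAB*, which encodes the small heat shock protein alphaB-crystallin and lies outside the prefix rule, differed by -0.24 ± 0.17 (SE), and by 0.0051 after quantile normalization.

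*HSPD1* and *HSPE1* encode the chaperonin of the mitochondrial matrix and its lid, and the genes are neighbours. They differed by -0.11 ± 0.13 and -0.17 ± 0.14 as deposited and by -0.03 and -0.05 after quantile normalization. *HSPH1*, the HSP110 exchange factor, read 11.32 in LP replicate 1 and 10.08 to 10.35 in the other LP animals, against 9.94 to 11.25 in HP muscle. Its difference of -0.28 ± 0.28 was -0.50 without LP replicate 1 and -0.64 without HP replicates 1, 2 and 4, still short of the limma threshold.

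Among the 22 DNAJ genes, 1 passed the test (*DNAJB4*), or 4.55%, beside 4.73% of all genes. Of the 22, 12 lay below 0, with a median difference of -0.02. *DNAJB6*, a class B protein of the Z-disc that limits protein aggregation, read 11.76, 11.75, 11.71, 12.03 and 11.69 in LP muscle and from 11.65 to 12.41 in HP muscle. Of the LP values, 4 lay below the HP values of all animals but replicate 3, and the difference was -0.29 ± 0.15 (exact permutation p = 0.074). After quantile normalization it was -0.20 and passed the unadjusted limma threshold, as it did without HP replicate 3 (-0.38). Without HP replicates 1, 2 and 4 it was -0.08, and the other 3 probe sets of the gene differed by -0.14, -0.16 and -0.07. *DNAJC9*, a histone chaperone, differed by -0.34 ± 0.18 (exact permutation p = 0.054, and -0.42 and past the limma threshold without LP replicate 4, but -0.20 without LP replicate 5), and *DNAJC3*, a cochaperone of *HSPA5*, by -0.23 ± 0.16, with -0.56 for its dimmer probe set.

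The class A proteins *DNAJA1*, *DNAJA2* and *DNAJA4*, cytosolic partners of HSP70, and the mitochondrial *DNAJA3* had differences between -0.10 and 0.10. The dimmer probe set of *DNAJA1* differed by 0.23. *DNAJB1*, the classical heat-induced HSP40, differed by 0.03 with a 95% interval of -0.32 to 0.39. *DNAJB9* and *DNAJB11*, which serve *HSPA5* in the endoplasmic reticulum, differed by -0.0024 and 0.03. *DNAJB2* (-0.22 ± 0.17), *DNAJB14* (0.24 ± 0.24) and *DNAJC11*, a mitochondrial protein (0.18 ± 0.12), were further from 0 without passing. The dimmer probe set of *DNAJB14* differed by -0.01. That of *DNAJC11*, above the negative controls on 5 arrays, differed by -0.12. Without HP replicates 1, 2 and 4, *DNAJB2* read -0.04 and *DNAJC11* passed (0.32).

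Of 64 chaperone partners listed outside the prefix rule, 46 were measured, 1 was higher in LP muscle, 0 were lower and their median difference was -0.01. Over the whole array 2.15% of probe sets passed as higher in LP and 2.97% as lower, so 1 of 46 was near the background share. The gene that passed was *SMYD1*, a muscle methyltransferase that works with HSP90 on myosin, which ran from 7.56 to 8.15 in LP and from 6.88 to 7.67 in HP muscle. The difference was 0.50 ± 0.17 (log2, limma p = 0.015, exact permutation p = 0.019), and it did not pass without HP replicates 1, 2 and 4 (0.31). *HSF1*, the heat shock transcription factor, differed by -0.11 ± 0.12, *STIP1*, which links HSP70 to HSP90, by 0.07 ± 0.16, and *BAG3*, which joins HSP70 to the small heat shock proteins, by -0.01 ± 0.20.

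In bulk muscle, fewer cells of a type and less RNA per cell cannot be told apart. The 4 measured adipocyte markers had a mean log2 level of 8.45 to 9.48 in LP and 8.34 to 9.28 in HP muscle, all 4 above the negative controls on every array, and the difference of 0.21 had an exact permutation p of 0.364. Singly, *LEP* differed by 0.74 (limma p = 0.053, exact permutation p = 0.089), *ADIPOQ* by 0.22, *LPL* by 0.01 and *FABP4* by -0.11, and none passed. Of the 8 slow fibre markers 1 was lower in LP (*CA3*, -0.34) and 0 were higher, and no endothelial, macrophage, fibroblast or red blood cell marker passed. Of 7 immediate early genes, which stress also induces, *ATF3* alone passed, as higher in LP (0.95). Beside these counts, 2.15% of all probe sets passed as higher in LP and 2.97% as lower. The levels of the 3 genes that passed, with the diet means removed, were set against 6 marker lists, the spike-ins and the ratio of the 3' to the 5' actin probe sets, and none of the 24 relations had an adjusted permutation p under 0.831.

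The second question was which of the genes varied together among animals. For this the mean of each diet was removed from every value, so that the diets' difference did not enter. Among the 46 genes the within-diet SD had a median of 0.26, beside 0.27 over all genes. The most variable were *DNAJC2* (0.64), *HSPA6* (0.59), *HSPA12A* (0.51), *HSPH1* (0.49) and *DNAJA4* (0.43). For *DNAJC2*, a ribosome-associated DNAJ protein, the SD came from HP replicate 4, which read 8.08 where the other HP animals read 9.74 to 10.31, and the second probe set of the gene was also lowest there (5.61, against 7.40 to 8.07).

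As deposited, the 1035 pairs of members had a median Pearson r of 0.26, beside 0.10 over all gene pairs of the array. After quantile normalization the members' median was 0.09 and that of all pairs 0.02, and after removing the linear relation to the spike-ins the values were 0.19 and 0.04. The 21 pairs of HSPB genes had the highest median of the larger families, 0.57 as deposited, 0.46 after quantile normalization and 0.55 with the spike-ins removed. The 45 HSPA pairs had medians of 0.25, 0.02 and 0.14, and the 231 DNAJ pairs 0.18, 0.02 and 0.08. Pairs share arrays and genes and are not independent, so these medians were not tested.

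The level of some members followed the spike-ins, as did that of many other genes. The correlation was above 0.7 for 12 of 46 members (26.1%), near the 20.4% of all genes, and its median was 0.44 against 0.33. For 11 of 46 members (23.9%) the correlation was below 0. It was 0.96 for *HSPB6* and *HSP90AA1*, 0.95 for *DNAJC24*, which encodes a diphthamide synthesis factor, 0.94 for *DNAJB6*, and 0.91 for *HSPA8* and *HSPB8*. At the other end *HSPH1* had an r of -0.71. These correlations over 11 arrays are descriptions without a test.

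**Figure D3:**
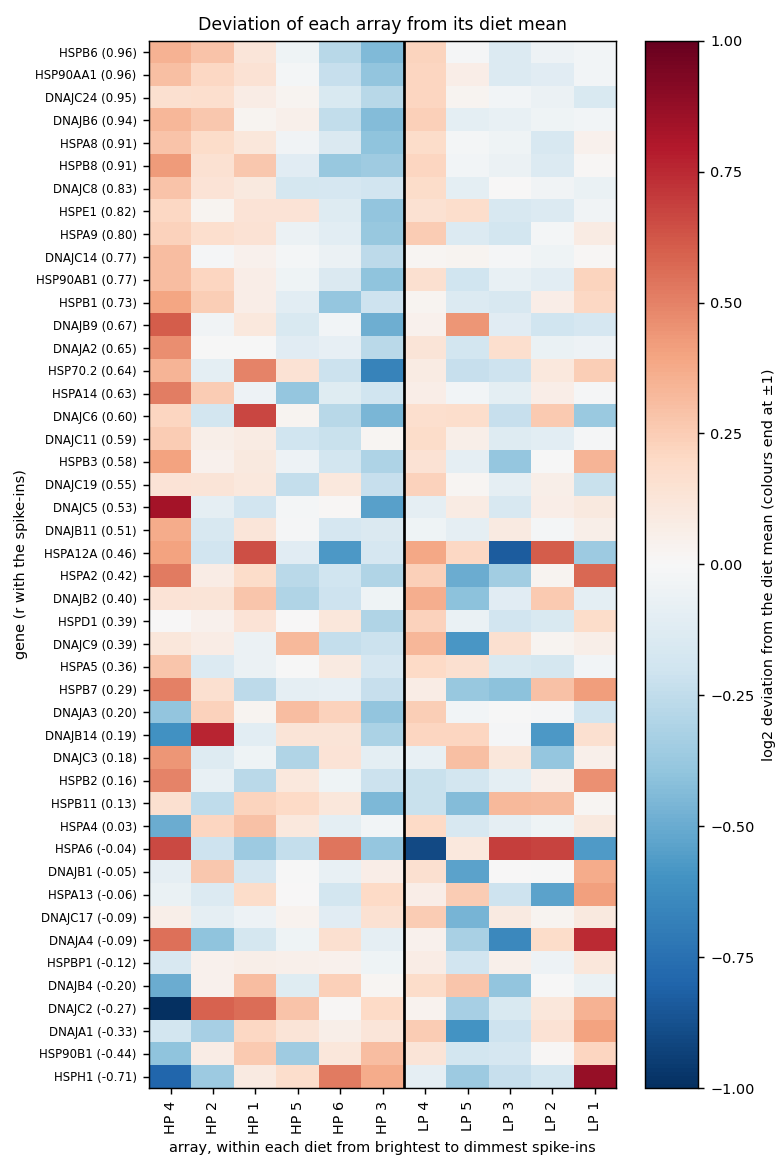
Log2 deviation of each array from the mean of its diet (colour) for the 46 genes, ordered from the highest to the lowest correlation with the spike-ins (in brackets). Arrays are ordered within each diet from the brightest to the dimmest spike-ins, and the upper rows pass from red in HP replicate 4 to blue in HP replicate 3, while *HSPH1* in the last row runs the opposite way in HP.

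In all, 20 pairs of genes with a known tie were examined, with Benjamini-Hochberg adjustment over the 20. The ties were a shared compartment, promoter or fibre type, a partnership, or induction by heat or stress. As deposited 10 passed an adjusted permutation p of 0.05, after the spike-ins were removed 5 passed, and after quantile normalization 1 passed. *HSPA8* and *HSP90AA1*, the main cytosolic HSP70 and an HSP90, had an r of 0.96 (rho = 0.94, adjusted permutation p = 0.0002 and 0.0007), 0.74 with the spike-ins removed and 0.76 after quantile normalization, where the adjusted permutation p was 0.054. Without the 2 arrays farthest from the median r was 0.94, and within the diets it was 0.99 in HP and 0.84 in LP.

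Of the mitochondrial pairs, *HSPA9* and *HSPD1* had an r of 0.77 (rho = 0.75, permutation p = 0.0058 and 0.011, adjusted 0.013 and 0.025), 0.83 with the spike-ins removed and 0.64 after quantile normalization. Leaving out the 2 farthest arrays gave 0.73. *HSPD1* and its neighbour *HSPE1* had an r of 0.62 (rho = 0.49, permutation p = 0.040 and 0.127, adjusted 0.072 and 0.212), 0.58 with the spike-ins removed and 0.55 after quantile normalization. As deposited it was 0.11 without HP replicate 3 and LP replicate 3 together. It was 0.32 without HP replicate 3 alone and 0.57 without LP replicate 3 alone.

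Of the muscle small heat shock proteins, *HSPB6* and *CRYAB* had an r of 0.97 (rho = 0.94, adjusted permutation p = 0.0002 and 0.0007), 0.74 with the spike-ins removed (adjusted permutation p = 0.039) and 0.44 after quantile normalization. As deposited it was 0.97 without the 2 farthest arrays. *MYH7*, the slow fibre myosin, and *CRYAB* had 0.93 as deposited (rho = 0.83, adjusted permutation p = 0.0003 and 0.014, 0.89 without the 2 farthest arrays) and -0.27 after quantile normalization. *BAG3* and *HSPB8*, which form a complex in muscle, kept like values under the 3 treatments, with 0.73 as deposited (rho = 0.76, permutation p = 0.013 and 0.0090, adjusted 0.025 and 0.022), 0.75 with the spike-ins removed and 0.71 after quantile normalization (adjusted permutation p = 0.082), and 0.70 without the 2 farthest arrays. *HSPB6* and *HSPB7* had 0.48 (rho = 0.42, permutation p = 0.134 and 0.205, 0.21 without the 2 farthest arrays), 0.81 and 0.67.

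*HSPH1* and *HSP90AA1* gave opposite signs, with -0.59 as deposited (rho = -0.58, permutation p = 0.057 and 0.066, -0.66 without the 2 farthest arrays) and 0.90 after quantile normalization (permutation p = 0.0002, adjusted 0.0038). With the spike-ins removed r was 0.44. Quantile normalization took the within-diet SD of *HSP90AA1* from 0.22 to 0.09 and that of *HSPH1* from 0.49 to 0.57, so for *HSP90AA1* the 0.90 describes a small remaining spread. Neither the inducible *HSP70.2* with *DNAJB1* (r = 0.07, rho = -0.08, permutation p = 0.839 and 0.817) nor *HSP70.2* with *HSPH1* (r = -0.13, rho = -0.01, permutation p = 0.696 and 0.990) had a relation past the test as deposited. Within the diets the signs were opposite, with -0.54 in HP and 0.81 in LP for the first pair and -0.51 and 0.77 for the second. These within-diet values were not tested. After the spike-ins were removed r was 0.13 and 0.60 (permutation p = 0.706 and 0.048, adjusted 0.706 and 0.159). *HSPA5* with *HSP90B1*, the main chaperones of the endoplasmic reticulum, had -0.42 as deposited (rho = -0.37, permutation p = 0.191 and 0.258).

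**Figure D4:**
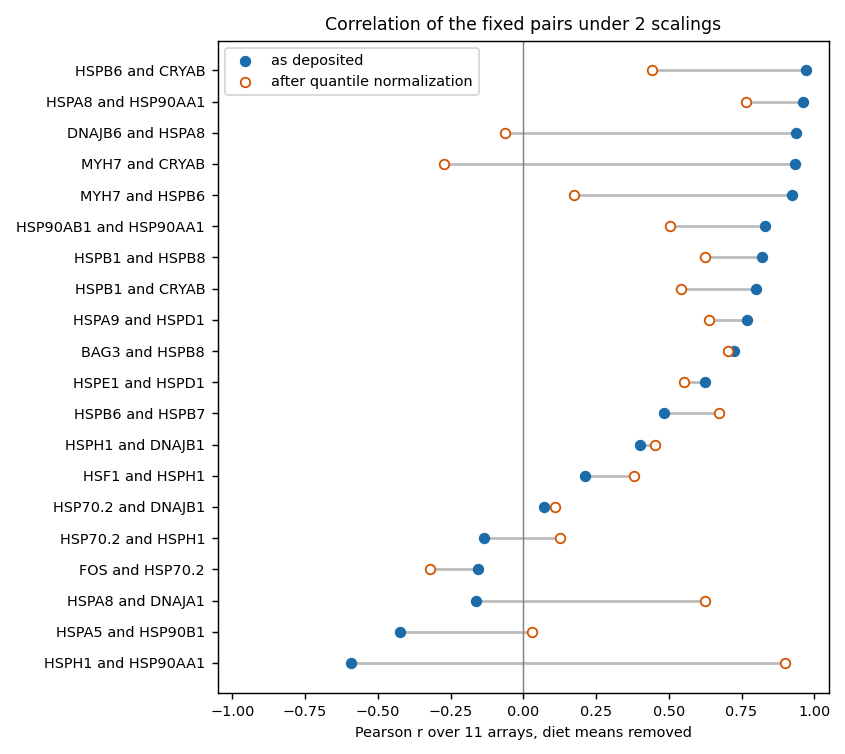
Pearson r over 11 arrays, with the diet means removed, for the 20 pairs as deposited (filled) and after quantile normalization (open). *HSPH1* with *HSP90AA1* moves from -0.59 to 0.90 and *DNAJB6* with *HSPA8* from 0.94 to -0.06, while *BAG3* with *HSPB8* stays near 0.7.

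Among all 1035 pairs, 61 had an r of 0.8 or more as deposited and 16 after quantile normalization, 6 had it under both, and 251 changed sign. The shares of all gene pairs at 0.8 and of sign changes were not counted. Above 0.7 lay 12.1% of member pairs as deposited, beside 5.70% of all gene pairs. After quantile normalization these were 4.35% and 2.23%. The 6 pairs at 0.8 under both scalings were chosen after their values were seen and carry no test. *HSPA4* and *DNAJC2* had 0.92 and 0.97, and 0.82 as deposited without HP replicate 4, in which both were lowest. *HSPA2* and *HSPB3*, a small heat shock protein of muscle, had 0.90 and 0.87 and did not fall below 0.857 when any 1 array was left out.

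The other 4 pairs were *HSP90AB1* with *HSPA9* (0.92 and 0.81), *DNAJC5*, a protein of secretory vesicles, with *DNAJC14* (0.91 and 0.89), *HSPA12A* with *DNAJC6*, which uncoats clathrin vesicles (0.84 and 0.84), and *HSPB7* with *DNAJA4* (0.81 and 0.85). For *DNAJC5* and *DNAJC14* the Spearman rho was 0.35, and r was -0.26 without HP replicates 3 and 4. The r of *HSPA12A* and *DNAJC6* was 0.88 within HP and 0.89 within LP.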

How the data were processed

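Total RNA of the muscle was amplified, labelled and hybridised to 1 array per pig, and, per the labels and the study's methods, the authors normalised the arrays in R and Bioconductor. The deposited table holds log2 expression levels with every array at the same median, and how background was corrected is not given in the sources used here. The table lists 24123 probe sets. The fit used the 23999 that remain without 124 control probe sets, and 10069 of these name 1 gene, 198 several and 13732 none.

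Diets were compared with limma 3.58.1 in R 4.3.3 (constant prior, diet as the only term), as the study's own method needs probe-level data. The threshold was an unadjusted p of 0.05, the level that the study set on its own P-like values, and exact permutation tests ran over the 462 splits of the 11 animals. Correlations used values minus the diet mean and 100000 random orders. The 46 genes, the marker and partner lists and the pairs were chosen with earlier results of these data known. Genes were named by rule if past the threshold, among the 3 lowest p-values per family or the 5 most variable, in a pair, or on a list of well known chaperones. *HSPA4*, *HSPA14*, *HSPB3*, *HSPB11*, *DNAJB9*, *DNAJB11*, *DNAJB14*, *DNAJC5*, *DNAJC6*, *DNAJC14*, *DNAJC24*, *CA3* and *ATF3* fall outside the rule and were named after their values were seen. The alternatives were quantile normalization, median centring, filters on dim probe sets, low values raised to the 20th percentile, a trended robust prior, array weights, the mean of all probe sets, a replicate block, each array left out and, added after the data were seen, HP replicates 1, 2 and 4 left out together and the spike-ins removed from the pairs. The limma step was tested on simulated data. Starting weight blocks, pens and slaughter dates per animal were not used here. The study penned the pigs in 2 groups, and whether pen went with diet is not given in the sources used here. The number of arrays limits the precision.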

Additional observations from a re-analysis of the deposited data

Results flagged for a closer look

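In 6 of the 92 groups of values (46 genes in each diet), 1 animal lay apart from the rest by Dixon's criterion, which chance meets in about 1 group in 20. *DNAJC2* in HP replicate 4 read 8.08, below the other HP animals (9.74 to 10.31), and *DNAJA2* in the same animal read 11.06, above the others (10.32 to 10.59). *HSPH1* in LP replicate 1 read 11.32 against 10.08 to 10.35, and *DNAJB6* in LP replicate 4 read 12.03 against 11.69 to 11.76. *HSPD1* in HP replicate 3 read 11.88 against 12.19 to 12.32, and *DNAJB14* in LP replicate 2 read 8.48 against 9.04 to 9.26. HP replicates 4 and 3 were the arrays with the brightest and the dimmest spike-ins. The part of that in the *DNAJC2*, *DNAJA2* and *HSPD1* values was not tested.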

How the results depend on the processing

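With 0 calls after adjustment, the calls rest on the unadjusted threshold, and 11 arrays cannot show small differences. Of 965 values of the 46 genes under the alternatives, 928 kept their direction and side of the threshold or moved by less than the spread, 16 moved further without a call, 10 lost a call, 11 gained one and 0 calls turned direction. The count of members lower in LP was 1, 0 without HP replicates 1, 2 and 4, 2 after quantile normalization, and 0 to 2 when 1 array was left out. The whole array gave 1227 calls, 1884 without those 3 arrays (40.1% of them lower in LP, against 58.0%) and 710 with dim probe sets left out. With the replicate block, which drops HP replicate 6 since LP has no animal of that number, 1 member was higher (*HSPBP1*, 0.29, was no longer past the threshold) and the array gave 1232 calls. The deviations of animals of the same number had correlations of -0.07 to 0.08. Values near 0 cannot show whether the numbers follow the starting weight blocks, as a block with a small effect would also give them. The members' median r of 0.26 was 0.0947 after quantile normalization. Under that scaling 6 of the 20 pairs changed sign, of which 3 passed the test under either scaling, namely *HSPH1* and *HSP90AA1* (0.90), *MYH7* and *CRYAB* (-0.27) and *DNAJB6* and *HSPA8* (-0.0625). The other 3 were *HSPA8* and *DNAJA1* (0.63), *HSPA5* and *HSP90B1* (0.03) and *HSP70.2* and *HSPH1* (0.13), and the cause was not tested.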
